A study of Mus musculus with 24 samples.

Results

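Chemokines are small secreted proteins that steer leukocytes, and their receptors sit on the cells that follow them. They were described here in the uninjured carotid artery of the mouse, by RNA sequencing. Members were taken by name, as protein-coding genes whose symbol starts with Ccl, Cxcl, Ccr or Cxcr followed by a digit, plus Cx3cl1, Cx3cr1, Xcl1, Xcr1 and Ackr1 to Ackr4. The rule found 60 genes, 37 ligands and 23 receptors, among the 55421 genes of the count tables. The rule uses names and no measured value. All 24 libraries came from ovariectomized C57BL/6 females, 9 weeks old per the labels. Animals received vehicle, which the labels call placebo (OVX group), estradiol (E2), estetrol (E4) or tamoxifen (TAM) for 3 weeks, with 6 libraries per group, 1 animal number each. The study's methods describe cholesterol pellets in which the masses of E2 and E4 differed, with E4 set to give an estrogenic effect like that of E2 on the uterus, give 2 weeks of treatment, and describe vehicle, E2 and E4 as 1 experiment. How the tamoxifen animals of these libraries were dosed is not given in the sources used here. The E4 libraries are named E4 by their titles, but their treatment label also reads placebo, so the group rests on the titles. Library totals ranged from 24647246 to 64221401 counts, and 3 counts corresponded to between 0.0453 and 0.122 CPM, the count scaled to a fixed library size.

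As background, chemokines act through receptors with 7 transmembrane helices that couple to inhibitory G proteins, and most ligands are made by tissue macrophages, fibroblasts or endothelium while most receptors are carried by leukocytes. Atypical receptors bind the same ligands without G protein signaling and remove or present them. In an artery wall Ccl2 and its receptor Ccr2 are best known for recruiting monocytes, Cx3cl1 for holding them on endothelium, and Cxcl12 with Cxcr4 for retaining progenitor cells.

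Several murine CC ligands lie side by side on chromosome 11, and Ccl6, Ccl9 and Ccl8 were the ligands with the largest differences past the test between E2 and OVX, so the sequences around their starts are shown. Promoter entries from RefSeq (build GRCm38.p6) were matched for 46 of the 60 members. Each sequence below runs 5′ to 3′ from 200 bases before the gene's start to 30 bases after it. In Ccl6 (chr11:83593058-83593287, minus strand) and Ccl9 (chr11:83578607-83578836, minus strand), capitals mark runs of at least 10 bases that the other gene's sequence also holds. In Ccl8 (chr11:82114985-82115214, plus strand), capitals mark TATAAA.
Ccl6: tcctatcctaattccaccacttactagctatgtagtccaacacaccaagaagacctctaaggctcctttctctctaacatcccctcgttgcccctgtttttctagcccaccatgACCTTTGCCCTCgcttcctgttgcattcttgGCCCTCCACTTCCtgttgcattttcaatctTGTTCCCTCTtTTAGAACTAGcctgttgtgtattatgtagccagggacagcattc
Ccl9: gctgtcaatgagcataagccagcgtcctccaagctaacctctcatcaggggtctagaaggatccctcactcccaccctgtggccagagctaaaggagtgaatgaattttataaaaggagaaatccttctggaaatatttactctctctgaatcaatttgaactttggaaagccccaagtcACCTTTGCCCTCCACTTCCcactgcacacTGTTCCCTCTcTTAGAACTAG
Ccl8: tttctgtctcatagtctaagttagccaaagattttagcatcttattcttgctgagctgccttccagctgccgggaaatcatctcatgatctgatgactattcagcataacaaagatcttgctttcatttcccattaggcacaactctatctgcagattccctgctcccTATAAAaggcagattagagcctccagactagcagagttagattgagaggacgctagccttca
The Ccl6 and Ccl9 sequences shared 4 such runs, of 12, 13, 10 and 10 bases, in the same order. They are separate in Ccl6, while in Ccl9 the runs of 12 and 13 bases overlap and form 1 stretch. The first of them began 86 bases before the start of Ccl6 and 20 bases before the start of Ccl9. Ccl8 was not compared in this way. TATAAA, searched on either strand of the 300-base entries, was found in 14.2% of 27025 promoters with 1 entry per gene symbol, and in 13 of the 46 member promoters, Ccl8 and Ccl9 among them. The palindromic consensus estrogen response element was found in 0.0666% of all promoters and in 0 of the 46. The single arm AGGTCA of that element was found in 16% of all and in 13 of the 46, and of the sequences above only Ccl6 held it. The GAGGAA core, a sequence bound by myeloid ETS factors, was found in 28.3% of all and in 15 of the 46, including Ccl8 and Ccr1. None of the sequences above held it, so the Ccl8 match lies outside the bases shown. No statement on any factor follows from these matches.

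Counts were scaled to CPM, and levels of different genes were compared as CPM per kilobase of annotated exon. Of the 60 members, 49 passed the filter on low counts and were tested. The 11 others (Ccl1, Ccl20, Ccl26, Ccr1l1, Ccr6, Ccr8, Cxcl3, Cxcl15, Cxcl17, Cxcr1 and Xcl1) reached at most 60 counts in any library, and Ccl20, a ligand of mucosal surfaces, had 0 counts in every library, which allows at most 0.122 CPM in the shallowest library (intervals of this kind cover counting error only). Mean levels over the 24 libraries were 10 or more in 8 members, from 1 to 10 in 22, and under 1 in 19 of those tested. The highest were Ccl11, the eosinophil attractant eotaxin, at 58.2, Ackr3, the scavenger of Cxcl12, at 47.7, and Ccl6, a macrophage ligand that binds Ccr1, at 28.4 CPM per kilobase. Cxcr4 followed at 26.1, Cxcl12 at 20.4, Ackr1 at 17, Ccl21a at 12, Ccl9 at 11.3, Ccl8 at 9.15 and Ccl21b at 7.57. Group means of Ccl6 were 56.3 in E2, where Cxcr4 was at 24.6, and 17.7 in E4, where Cxcr4 was at 31.5, while Ccl11 and Ackr3 were above Ccl6 in either group. The best-known inflammatory ligands were lower, with Ccl2 at 3.52, Cxcl10 at 2.18, Ccl5 at 1.34, Cxcl1 at 1.1 and Ccl3 at 0.262 CPM per kilobase.

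**Figure D1:**
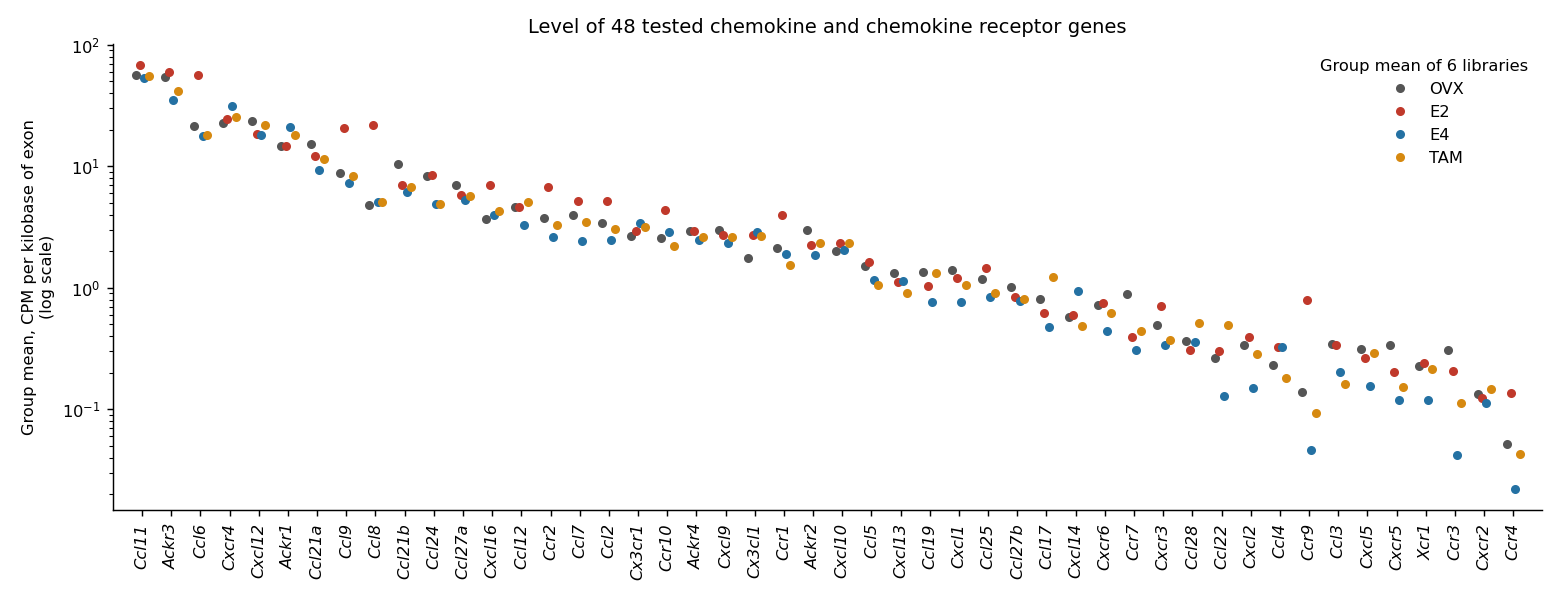
Group means of 6 libraries, in CPM per kilobase of exon on a log scale, for 48 of the 49 tested members, ordered by their mean over all libraries. Ccl6, Ccl9 and Ccl8 stand higher in E2 (red) than in the other groups, and Ccr3 is lowest in E4 (blue).

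Exons of 10 members overlap those of other genes, and the strand setting of the counting is not given in the sources used here. Reads of the opposite-strand pairs Cxcl16 and Zmynd15, or Ccl27a and Il11ra1, therefore cannot be told apart with certainty. Ackr1 and Cadm3 overlap on the same strand, where no strand setting would separate their reads. Near-identical copies share reads too. Of the 50-base windows in Ccl21b transcripts, 71.7% were also found in Ccl21a, and of those in Ccl27b, 61.4% were found in Ccl27a. Ccl6 and Ccl9 transcripts shared 0 such windows.

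Smooth muscle markers of the artery wall (Myh11, Acta2 and 4 others) summed to 2239 to 7947 CPM, with none at 0. Several libraries stood apart in tissue composition, and members moved with them. In bulk tissue, fewer cells of a type and less RNA per cell cannot be told apart. In OVX C5 and TAM C35 the summed sympathetic ganglion markers were 35.2 and 154 CPM, against 1424 to 5135 CPM in the other 22 libraries. Cxcr4 was 6.97 CPM in OVX C5 and 6.03 CPM in TAM C35, and 26.3 to 65.7 CPM in the other 22. Ackr1, an erythrocyte and venular receptor that binds many ligands, was 8.7 and 9.79 CPM there and 13.2 to 32.4 CPM elsewhere. The levels of these members were lowest in exactly the 2 libraries with the fewest ganglion transcripts. Cadm3, whose exons overlap Ackr1 on the same strand, was 58.9 and 64.6 CPM there and 90.6 to 333 CPM elsewhere. Thyroid markers summed to 2970 CPM in E4 C38 and 122 CPM in E4 C16, against at most 28 CPM elsewhere, and Cxcl14 was highest in E4 C38 at 4.33 CPM. Cx3cr1, the fractalkine receptor, was 4.72 CPM in OVX C5 and 8.84 CPM in TAM C35, and 8.35 to 19 CPM in the other 22, so TAM C35 fell within their range. In E2 C9, Ccr9, the receptor of thymocytes and gut-homing T cells, was 43.9 CPM, against 0.147 to 2.96 CPM in the other 23 libraries. Its ligand Ccl25 was 28.1 CPM there and 5.64 to 12.8 CPM elsewhere, and Ccr4 was 1.5 CPM there and 0 to 0.271 CPM elsewhere. All 3 members were highest in that library. A thymocyte list (Rag1, Rag2, Dntt, Cd8b1, Cd4, Arpp21, Ptcra and Cd1d1), chosen after these values were seen, summed to 530.4 CPM in E2 C9 and to 69.9 to 171 CPM elsewhere, and Rag1 alone was 205 CPM there and 0 to 9.09 CPM elsewhere.

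**Figure D2:**
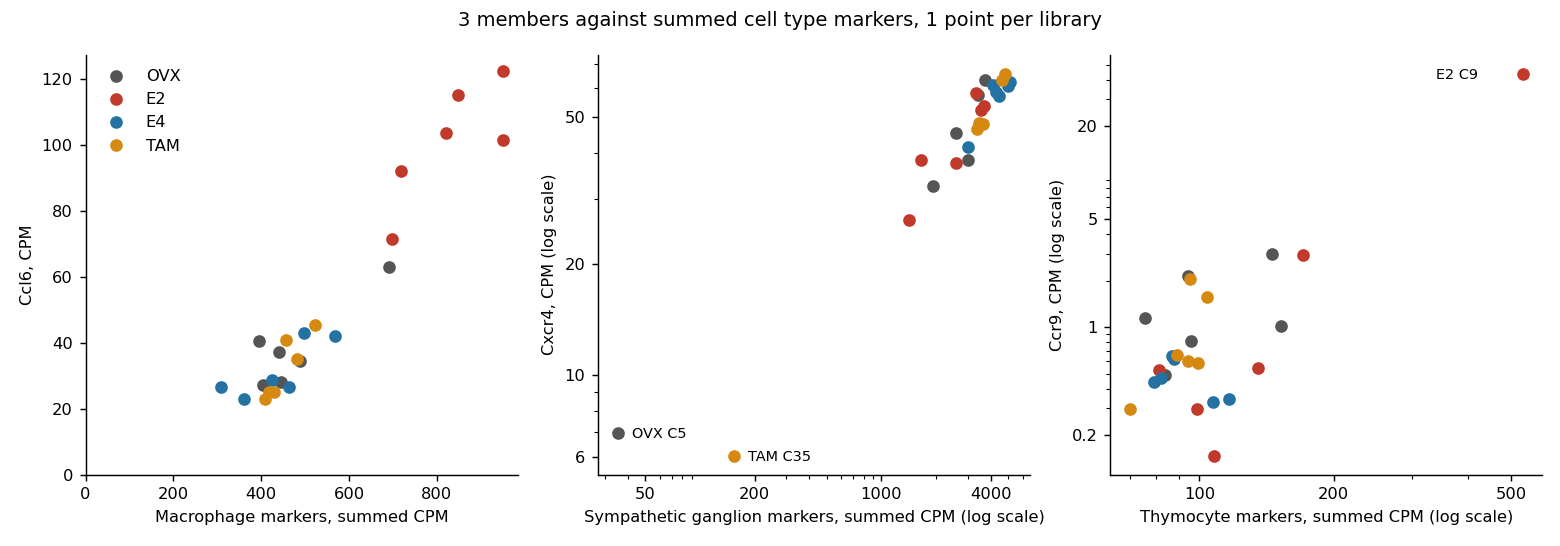
Each point is 1 library, with the CPM of a member on the vertical axis and the summed CPM of a marker list on the horizontal axis, both on log scales in the middle and right panels. Ccl6 and macrophage markers are both highest in the 6 E2 libraries, Cxcr4 is lowest in the 2 libraries with the lowest ganglion sums, and Ccr9 is highest in E2 C9.

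To ask which chemokine genes respond to estradiol, E2 was compared with OVX. Chemokine genes of the monocyte and macrophage axis were higher in E2. Of the 49 tested members, 7 rose and 1 fell at an adjusted p under 0.05, by the quasi-likelihood F test of edgeR, with p-values adjusted by Benjamini-Hochberg over 25056 genes, which is the test used throughout. That is 16.3% of the tested members, beside 4.14% of all genes tested, and 2.87% of all genes were higher. The median log2 fold change was 0.09 over the members and 0.01 over all genes. With a fold change over 2 added, the threshold the study used, the members were Ccl8, Ccl6 and Ccl9, beside 0.922% of all genes that rose by as much.

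Among the ligands of Ccr2 and Ccr1, Ccl8 changed most. Ccl8, which attracts monocytes, had lowest, median and highest values of 1.56, 1.87 and 4.33 CPM in OVX and 7, 10.2 and 19.7 CPM in E2. Every E2 library was above every OVX library. Its log2 fold change was 2.18 ± 0.35 (SE, adjusted p = 0.000346), 4.54-fold higher.

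Ccl6 and Ccl9, neighbours that bind Ccr1 and are made mainly by myeloid cells in the mouse, rose alongside. For Ccl6 the values were 27.3, 35.9 and 63.2 CPM in OVX and 71.4, 103 and 123 CPM in E2 (log2 fold change 1.39 ± 0.21, adjusted p = 0.000189). The highest OVX library, C5, lay below the lowest E2 library. For Ccl9 the values were 20.1, 25.4 and 39.4 CPM in OVX and 43, 65.1 and 84.5 CPM in E2 (log2 fold change 1.24 ± 0.21, adjusted p = 0.000409). OVX C5 was again the highest of its group and below all E2 libraries. The inflammatory CC ligands Ccl3, Ccl4 and Ccl5 did not pass, and none of them exceeded 3.53 CPM in any library.

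The receptors of these ligands were higher as well. Ccr1 was 3.77 to 7.89 CPM in OVX and 9.81 to 12.7 CPM in E2 (log2 fold change 0.90 ± 0.19, adjusted p = 0.00474), with no overlap of the groups. Ccr2, carried by inflammatory monocytes, had values of 21.2, 24.6 and 33.2 CPM in OVX and 32.8, 45.2 and 64.8 CPM in E2, and the lowest E2 library, C29, lay below the highest OVX library, C3. Its log2 fold change was 0.83 ± 0.15 (adjusted p = 0.00103).

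Outside those axes, Cxcl16, a ligand with a membrane-bound form that also takes up oxidized lipoprotein, was 9.14 to 13.9 CPM in OVX and 18.8 to 25.7 CPM in E2 (log2 fold change 0.94 ± 0.15, adjusted p = 0.000257). The groups did not overlap. Zmynd15, which overlaps it on the opposite strand, had a log2 fold change of 0.90 (adjusted p = 0.000583), and how many reads the genes share was not tested. The Cxcl16 receptor Cxcr6 was 0.89 to 2.42 CPM in OVX and 0.949 to 2.24 CPM in E2 and did not pass. Ccr10, a receptor of skin-homing lymphocytes, was 3.19 to 6.31 CPM in OVX and 6.41 to 9.54 CPM in E2 (log2 fold change 0.77 ± 0.15, adjusted p = 0.00193), also without overlap. In all, 7 members had groups that did not overlap, namely Ccl8, Ccl6, Ccl9, Ccr1, Cxcl16, Ccr10 and Cx3cl1, each higher in E2, beside 2.82% of all genes.

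Cxcl12, the stromal ligand of Cxcr4 and Ackr3, was the member that fell. Its values were 172, 196 and 212 CPM in OVX and 126, 149.5 and 174 CPM in E2 (log2 fold change -0.37 ± 0.10, adjusted p = 0.0401). The highest E2 library, C8, was within the OVX range. This call ended when any of 9 single libraries was left out (OVX C4, C5, C24 or C25, E2 C6, C26, C27 or C29, or E4 C20).

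**Figure D3:**
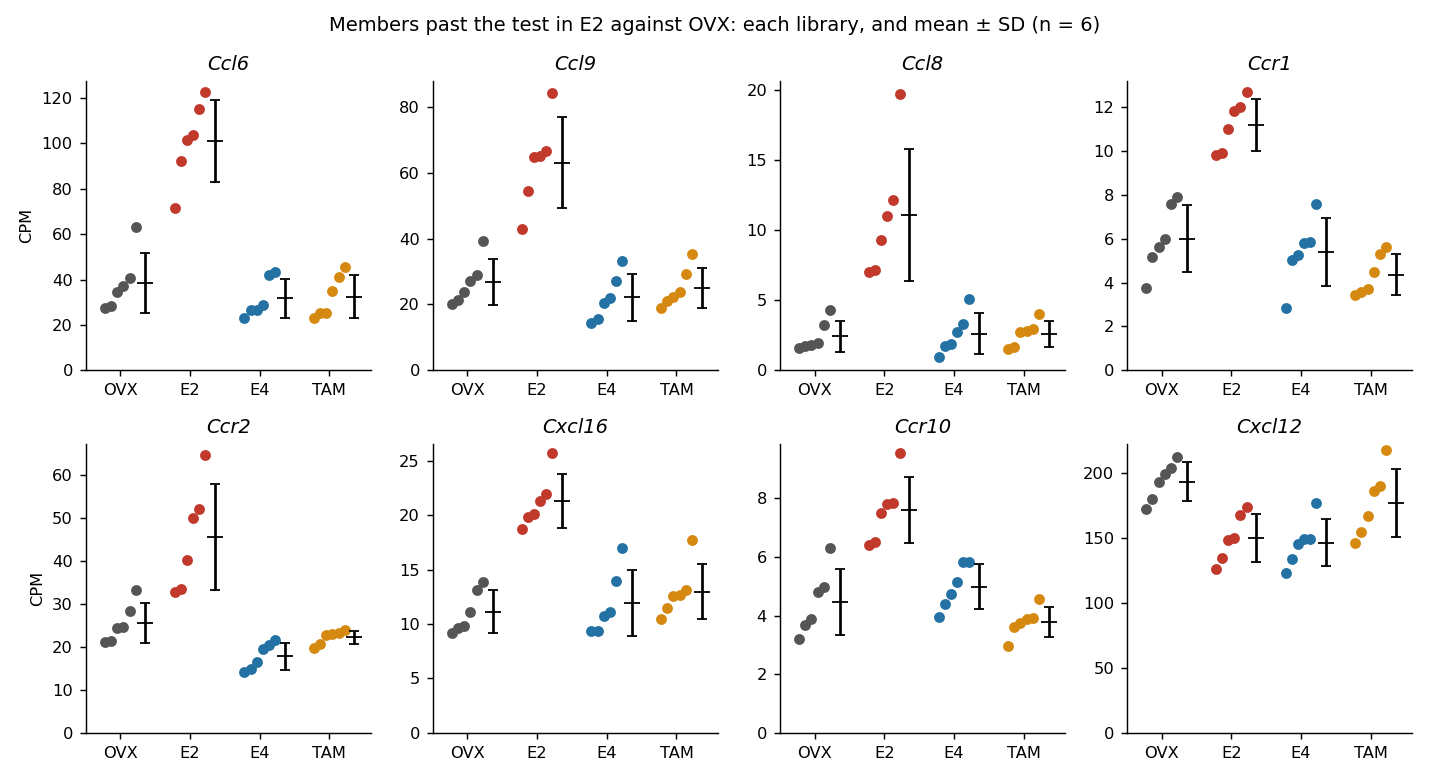
CPM of each library (coloured points) and mean ± SD (black, n = 6) for the 8 members past the test in E2 against OVX. Ccl6, Ccl9, Ccl8, Ccr1, Cxcl16 and Ccr10 in E2 do not overlap OVX.

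Macrophage markers moved with these members. Of 10 markers (Adgre1, Csf1r, Cd68, Cd163, Mrc1, C1qa, C1qb, C1qc, Mertk and Fcgr1), 9 rose in E2 and 0 fell, with a median log2 fold change of 0.87, and their sum was 395 to 691 CPM in OVX and 698 to 952 CPM in E2, without overlap. Each of the 10 was detected. With the mean of these markers as a covariate, an alternative chosen after seeing the data, the log2 fold changes were 0.79 for Ccl8, 0.44 for Ccl6, 0.20 for Ccl9, 0.22 for Ccr1, 0.34 for Ccr2, 0.20 for Cxcl16 and 0.63 for Ccr10. None of the 7 passed the test in that fit, in which 1250 of 25056 genes did, and the part of macrophage content in these differences cannot be told apart from the E2 group by it.

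The animal numbers form a low series (up to C20) and a high series (from C24), with 4 and 2 OVX libraries and 3 and 3 of each other group, which the labels do not call batches. Within the low and the high series, log2 fold changes in E2 were 2.37 and 2.13 for Ccl8, 1.40 and 1.5 for Ccl6, 1.38 and 1.12 for Ccl9, and 1.05 and 0.62 for Ccr2. The direction was the same in either series for these members. Of the 8 calls, 5 passed in the low series alone and 0 in the high series alone, where 2 OVX libraries remain, beside 341 of 25474 and 92 of 25513 genes in all. Without OVX C5 and TAM C35 all 8 passed, and Ccl11 and Ccl27a passed besides.

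The rise was uneven along the gene clusters. In the chromosome 11 cluster of Ccl2, Ccl7, Ccl11, Ccl12, Ccl8 and Ccl1, Ccl8 (chr11:82115185-82116799) rose and its neighbour Ccl12 (chr11:82101845-82103400) was 1.81 to 3.54 CPM in OVX and 1.48 to 3.92 CPM in E2. Ccl2, the main monocyte attractant, was 2.9, 4.02 and 4.98 CPM in OVX and 2.88, 6 and 9.55 CPM in E2. The groups overlapped, and the log2 fold change of 0.59 ± 0.22 did not pass (adjusted p = 0.162), although it did without E2 C29 (0.73). In the second cluster, Ccl9 (chr11:83572919-83578636) and Ccl6 (chr11:83587882-83593087) lie next to each other between Ccl5 and Ccl3, neither of which passed. On chromosome 9, Ccr1 and Ccr2 rose, while Ccr3, which lies between them, had a log2 fold change that did not pass (adjusted p = 0.627). Gene coordinates are those of GENCODE mouse release 21 on GRCm38.

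**Figure D4:**
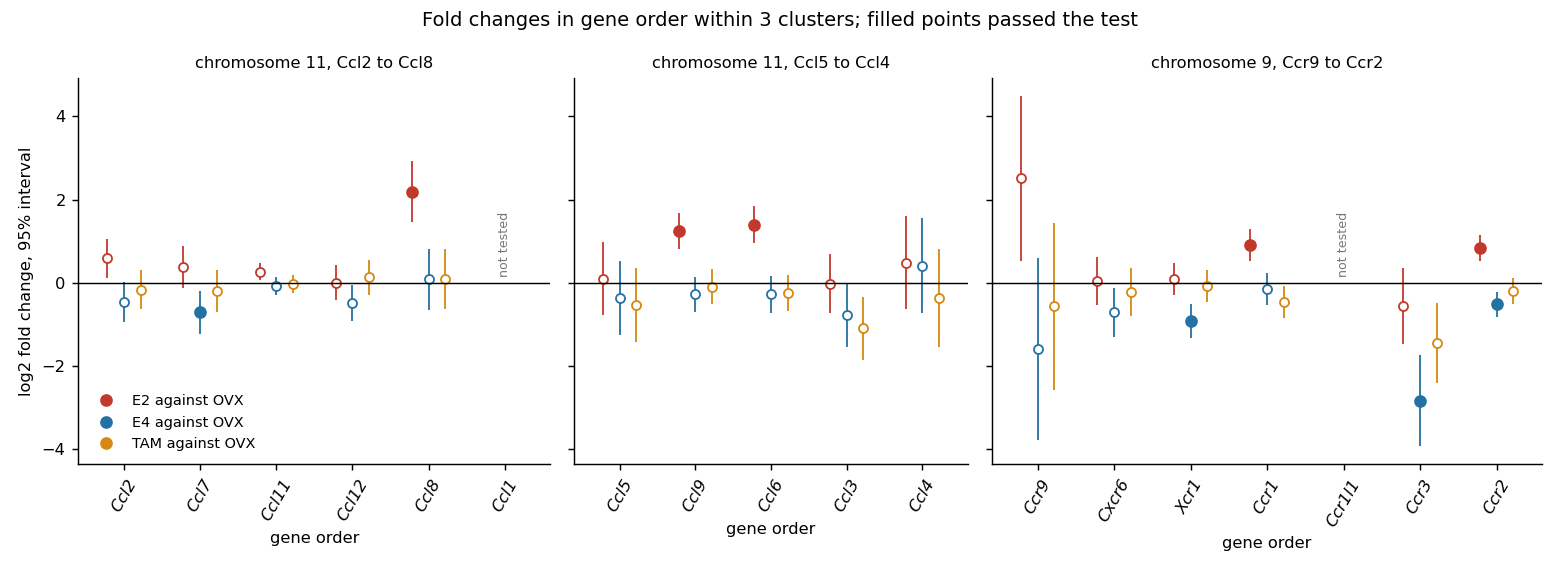
log2 fold change and 95% interval of plotted members in their order along 3 clusters (spacing not to scale), for E2 (red), E4 (blue) and TAM (orange) against OVX, filled where the test was passed. Ccl8, Ccl9, Ccl6, Ccr1 and Ccr2 are the filled red points, and Ccl7, Xcr1, Ccr3 and Ccr2 the filled blue ones.

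E4 was compared with OVX to ask whether a weaker natural estrogen, which carries more hydroxyl groups than E2 on the same steroid frame, gives the same profile. Members were lower in E4 rather than higher. Of the 49 tested, 16 fell and 1 rose, 34.7% in all, beside 22.0% of all genes (12.5% lower and 9.5% higher). The median log2 fold change was -0.48 over the members and -0.01 over all genes. Ccr3, Ccr7 and Cxcr5 fell more than 2-fold, beside 1.68% of all genes that did so.

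Genes of lymphocyte homing made up the largest share, with 5 of 6 tested members lower. Cxcr5, the B cell receptor for Cxcl13, was 0.488, 1.04 and 1.76 CPM in OVX and 0.276, 0.313 and 0.623 CPM in E4 (log2 fold change -1.45 ± 0.34, adjusted p = 0.00525). Ccr7, which guides lymphocytes and dendritic cells to lymph nodes, was 0.281, 1.59 and 3.52 CPM in OVX and 0.281, 0.652 and 0.851 CPM in E4 (log2 fold change -1.53 ± 0.47, adjusted p = 0.0242). In either gene the lowest OVX library reached the E4 range, and the Ccr7 call was lost without OVX C3 (-1.22) or without E4 C20 (-1.38). The Ccr7 ligands Ccl19, Ccl21a and Ccl21b had log2 fold changes of -0.81 ± 0.23, -0.71 ± 0.21 and -0.76 ± 0.19 (adjusted p = 0.0159, 0.019 and 0.00929), and for Ccl21b the shared sequence with Ccl21a applies. Cxcl13 itself was 0.845 to 3.8 CPM in OVX and 0.797 to 1.75 CPM in E4 and did not pass.

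B cell markers moved with these genes. Of 10 B cell markers, 9 fell in E4, and their sum was 6.98 to 43.4 CPM in OVX and 4.01 to 8.75 CPM in E4, with OVX C3 the highest at 43.4 CPM. With the mean of these markers as a covariate, 0 members passed in E4 against OVX, and only 101 of 25056 genes did (5511 without the covariate). In that fit the log2 fold change of Cxcr5 was -0.19 and that of Ccr7 turned to 0.30, while that of Ccr3 was -2.26. The B cell list holds neither Cxcr5 nor Ccr7. T cell markers had a median log2 fold change of -1.73 in E4, beside -1.77 for B cell markers, but 0 of 10 passed. The T cell sum was 8.63 to 47.9 CPM in OVX and 3.89 to 10.3 CPM in E4. Among OVX libraries it was highest in C3 and C24 (47.9 and 37.1 CPM), which also held the most Ccr7 (3.52 and 2.65 CPM). What part lymphocyte content has in these differences was not tested.

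Ccr3, the eotaxin receptor of eosinophils, showed the largest difference in E4. It was 0.575, 0.954 and 1.43 CPM in OVX and 0.0243, 0.111 and 0.302 CPM in E4, and the groups did not overlap. In E4 C19, C38 and C39 it had only 1 or 2 counts. Its log2 fold change was -2.83 ± 0.53 (adjusted p = 0.00138), and it was -2.73 in the low number series and -2.84 in the high one. Of its ligands, Ccl24 (eotaxin-2) was 7.62 to 17.8 CPM in OVX and 4.7 to 7.74 CPM in E4 (log2 fold change -0.76 ± 0.17, adjusted p = 0.00453), with 1 E4 library above the lowest OVX library. Ccl11, the most abundant member, was 54.1 to 74.4 CPM in OVX and 49 to 67.9 CPM in E4 and did not pass. The other tested eosinophil and type 2 members, Ccl17, Ccl22 and Ccr4, did not pass either.

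The Cxcl12 axis fell in part, as did fibroblast markers, of which 4 of 6 fell and whose sum was 3729.6 to 5725 CPM in OVX and 2538 to 4128 CPM in E4. Cxcl12 was 124 to 177 CPM in E4 (log2 fold change -0.40 ± 0.10, adjusted p = 0.00834). Ackr3 was 116 to 257 CPM in OVX and 86.6 to 166 CPM in E4 (log2 fold change -0.62 ± 0.19, adjusted p = 0.022), a call lost without OVX C5 (-0.49), E4 C19 (-0.55) or E4 C20 (-0.59). For Cxcr4 the difference of 0.48 ± 0.40 did not pass, and with the ganglion markers as a covariate it was -0.14. With that covariate, which depends on OVX C5 and TAM C35, 13 members passed in this comparison, beside 4670 of 25056 genes, and Ackr3, Ccl7, Ccr2 and Cxcl1 no longer did.

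Of the 5 tested monocyte receptor and ligand genes, Ccr2 and Ccl7 fell and 3 did not pass. Ccr2 was 14.1 to 21.6 CPM in E4 (log2 fold change -0.52 ± 0.15, adjusted p = 0.0179, lost without OVX C3 at -0.43). Ccl7, another Ccr2 ligand, had a log2 fold change of -0.70 ± 0.25 (adjusted p = 0.0468), and this call ended in 16 of the 24 fits that each left out 1 library. Ccl6, Ccl9 and Ccl8, the ligands that rose in E2, did not pass in E4 and were 23 to 43.1, 14.4 to 33.1 and 0.922 to 5.06 CPM. Of the 10 macrophage markers, 1 fell and 0 rose in E4.

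Single members of other families also fell. Xcr1, the receptor of cross-presenting dendritic cells, was 0.703, 0.991 and 1.27 CPM in OVX and 0.328, 0.6 and 0.631 CPM in E4, without overlap (log2 fold change -0.92 ± 0.20, adjusted p = 0.00299). Ackr2, which degrades inflammatory CC ligands, had a log2 fold change of -0.69 ± 0.18, and Cxcl1, a neutrophil attractant, one of -0.87 ± 0.28 (adjusted p = 0.00888 and 0.0274). The Cxcl1 call was lost without OVX C5 (-0.73), E4 C16 (-0.70), E4 C19 (-0.86) or E4 C36 (-0.83). Ccl27a, a skin ligand, fell by a small amount (log2 fold change -0.41 ± 0.09, adjusted p = 0.00344) without overlap of the groups, and Il11ra1, on the opposite strand, fell as well (log2 fold change -0.72).

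Cx3cl1 was the member that rose in E4. Fractalkine, its product, is held on endothelial membranes, and its values were 4.14, 7.84 and 7.99 CPM in OVX and 8.24, 10.5 and 18 CPM in E4. Every E4 library exceeded every OVX library, and E4 C39 stood above the rest. The log2 fold change was 0.73 ± 0.18 (adjusted p = 0.00768). It was 0.62 ± 0.18 in E2 and 0.60 ± 0.18 in TAM, which did not pass (adjusted p = 0.0517 and 0.0691), and the 3 comparisons share the OVX libraries. E2 was 9.07 to 12.4 CPM, also above every OVX library. Groups did not overlap for 2 members higher and 3 lower in E4, beside 5.3% and 4.07% of all genes. In the low number series alone, the E4 calls of Cx3cl1, Ccl19, Ccl24, Ccl7, Ccr7, Cxcl1 and Cxcr5 were lost, and the other 10 held. None held in the high series alone, where 2 OVX libraries remain.

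**Figure D5:**
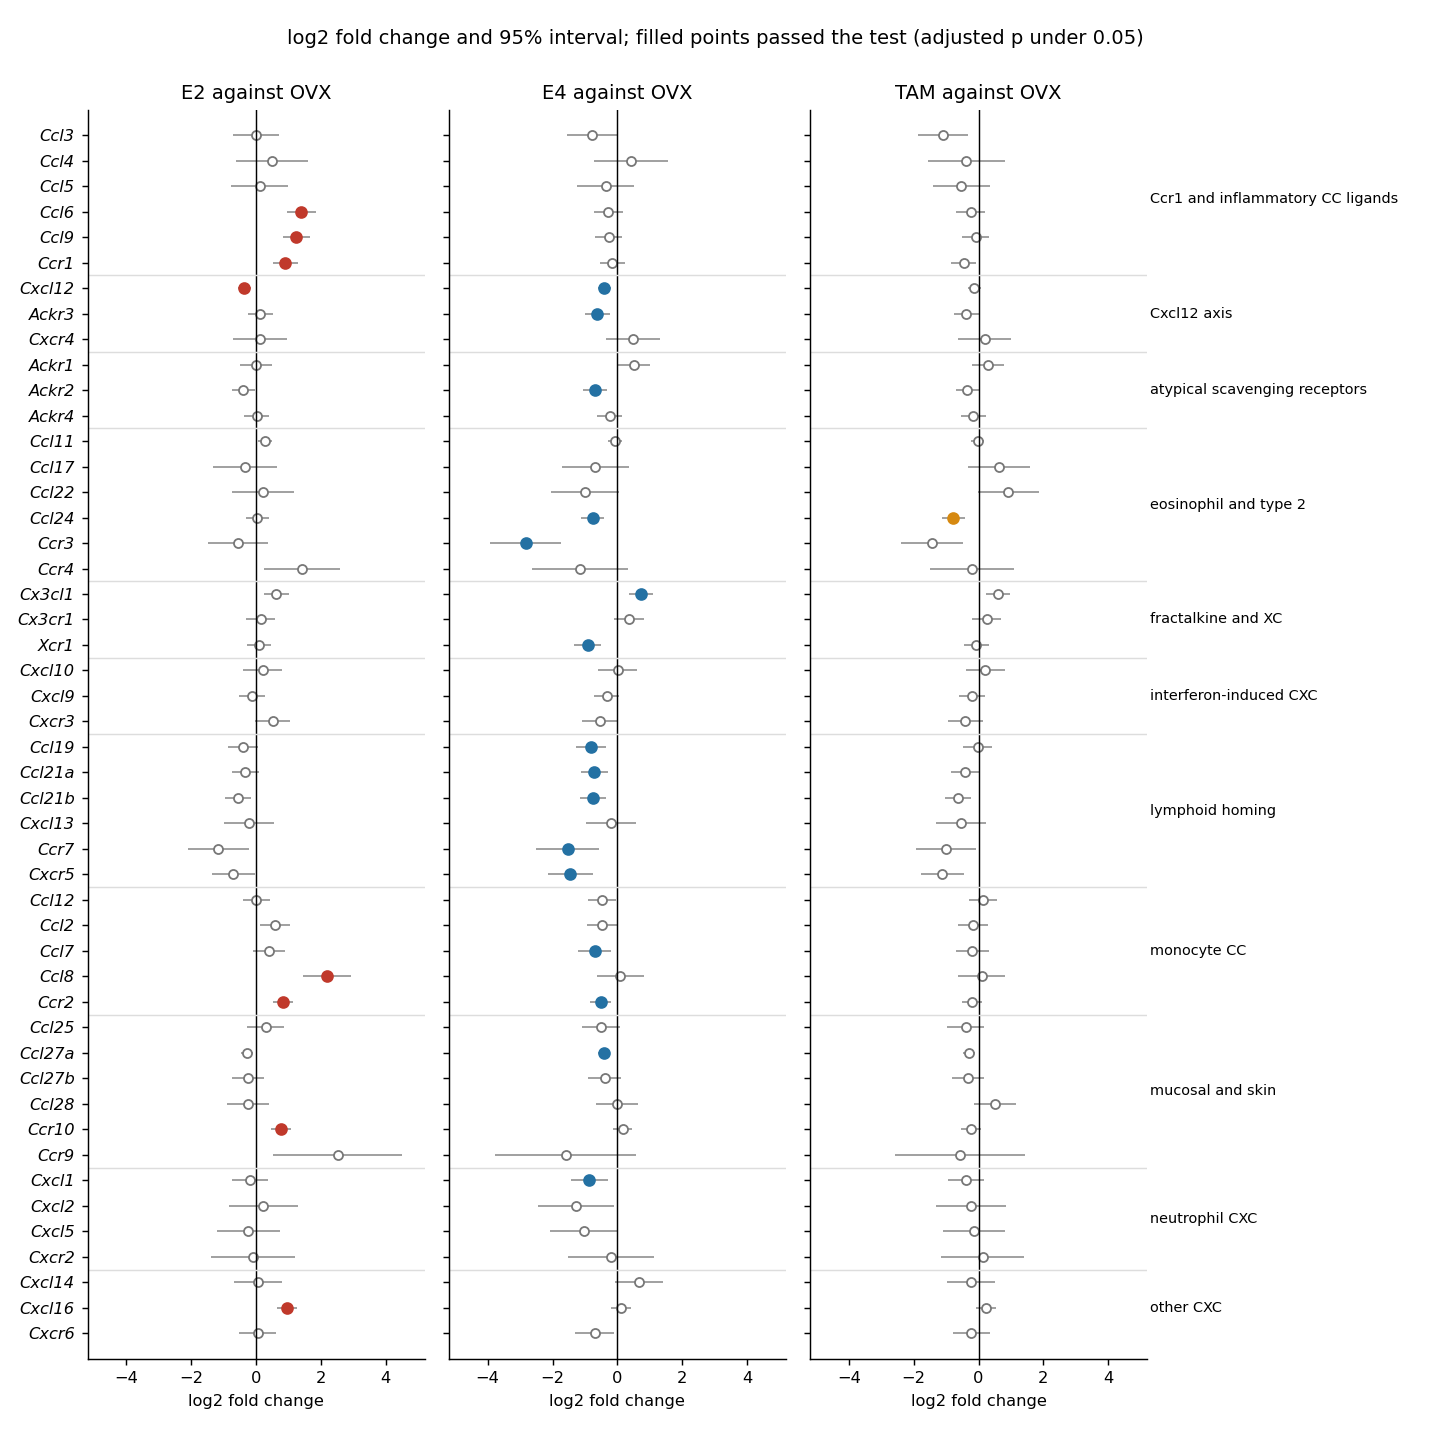
log2 fold change and 95% interval of 48 of the 49 tested members, grouped by role, in E2, E4 and TAM against OVX, which is shared by all 3 panels. Filled points passed the test. The filled E2 points lie right of 0 except Cxcl12, the filled E4 points lie left of 0 except Cx3cl1, and Ccl24 is filled in TAM.

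Tamoxifen, an estrogen receptor modulator that is no steroid, was compared with OVX in the same fit. Of the 49 members, 1 fell and 0 rose, 2.04%, beside 2.23% of all genes and 0.93% lower. With the fold threshold 0 remained, beside 0.315% of all genes. The member that fell was Ccl24, at 7.62, 10.1 and 17.8 CPM in OVX and 4.64, 5.99 and 8.22 CPM in TAM. The groups overlapped, and OVX C5 was the highest OVX library. The log2 fold change was -0.78 ± 0.17 (adjusted p = 0.0247), and it no longer passed without OVX C3 (-0.77), TAM C11 (-0.72) or TAM C13 (-0.70), or without OVX C5 and TAM C35 together (-0.56). Ccr3, the receptor for Ccl24, was 0.0851 to 0.952 CPM in TAM, highest in TAM C35. Its log2 fold change of -1.44 ± 0.47 did not pass (adjusted p = 0.085), and without TAM C35 it was -1.97 and passed. At an unadjusted p under 0.05, 10 members differed, and DESeq2 called 6, adding Ccl21b, Ccl27a, Ccr3, Cx3cl1 and Cxcr5. The shares of all genes under these rules are not given here, so neither count is read as a result about the members.

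The treatments were then compared with each other. E2 and E4 pellets differed in mass and were matched by uterine response. In E4 against E2, 18 of the 49 members were lower in E4 and 0 higher, beside 12.6% of all genes and 9.05% lower, with a median log2 difference of -0.60 over members and -0.01 over all genes. Ccr2 differed with the smallest adjusted p, at 32.8, 45.2 and 64.8 CPM in E2 and 14.1, 18 and 21.6 CPM in E4 (log2 difference -1.35 ± 0.15, adjusted p = 2.54e-05). Ccl6, Ccl9 and Ccl8 differed by -1.67 ± 0.22, -1.51 ± 0.21 and -2.09 ± 0.36, and their groups did not overlap. In all, 11 members did not overlap and were lower in E4, beside 4.13% of all genes, and 13 were lower by more than 2-fold, beside 2.27% of all genes. Other monocyte and macrophage members among the 18 were Ccr1 (-1.05), Ccl7 (-1.09), Ccl2 (-1.05) and Cxcl16 (-0.84).

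Among the others, Ccr3 (-2.27), Cxcr3 (-1.04), Xcr1 (-1.01), Ccl24 (-0.79), Ackr3 (-0.75), Ccr10 (-0.60) and Ccl11 (-0.34) passed too. Cxcr3 is the receptor of Cxcl9 and Cxcl10 on activated T cells. All 10 T cell markers were lower in E4 than in E2, and their sum was 388 CPM in E2 C9 and 3.89 to 47.9 CPM in the other 23 libraries. The Cxcr3 call held without E2 C9, where Cxcr3 was 1.46 CPM, below the 1.63 CPM of E2 C6. The largest values were for Ccr9 (-4.09) and Ccr4 (-2.56), and they rested on E2 C9. Without it they were -0.90 (adjusted p = 0.393) and -1.51 (adjusted p = 0.0759). The Ccl11 call was lost in 7 of the 24 fits without 1 library (E2 C6, C8 or C9, or E4 C19, C20, C36 or C38). In E2 against OVX, the log2 fold change of Ccr9 was 2.51 with E2 C9 and -0.68 without it, and neither passed. Within the low and high number series, the E4 against E2 differences were -1.73 and -0.90 for Ccr2, -2.06 and -1.30 for Ccl6 and -2.96 and -1.20 for Ccl8. In the low series 19 members passed, beside 3172 of 25474 genes, and in the high series, with 3 libraries a group, 0 members and 0 of 25513 genes did. Of the macrophage markers 9 were lower in E4 than in E2, and with their mean as a covariate 0 members and 0 of 25056 genes passed.

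In TAM against E2, 11 members were lower in TAM and 0 higher, beside 6.4% of all genes and 4.48% lower. The difference exceeded 2-fold in 6 of them, beside 1.39% of all genes, and 10 did not overlap E2, beside 3.12%. Among the 11 were Ccl8 (-2.09 ± 0.35), Ccl6 (-1.64 ± 0.22), Ccr1 (-1.36 ± 0.19), Ccl9 (-1.33 ± 0.21), Ccr2, Ccr10, Cxcr3, Ccl24, Ccl2 and Cxcl16, the last at -0.71 ± 0.15. Ccl6 was 23, 30.1 and 45.6 CPM in TAM, below every E2 library. Of the 10 macrophage markers 9 were lower in TAM than in E2 (median log2 difference -0.97), and with their mean as a covariate none of the 11 calls remained, while 904 of 25056 genes passed. The Ccl2 and Cxcr3 calls were close to the threshold (adjusted p = 0.0451 and 0.0373), and were lost in 13 and 6 of the 24 fits without 1 library. TAM and E4 differed in 0 of the 49 members by edgeR, beside 0.343% of all genes. At an unadjusted p under 0.05, 11 members differed, and DESeq2 called Ccl22 and Xcr1 higher in TAM. Shares of all genes under these last rules are not given here, so they are not read as results about the members. For Ccl6 and Ccl8 the 95% intervals of the TAM against E4 log2 difference were -0.41 to 0.47 and -0.72 to 0.73, and differences within these bounds could not be resolved.

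Other members gave no call against OVX. Cxcl10, an interferon-induced ligand of Cxcr3, was 3.02, 4.63 and 6.27 CPM in OVX, 2.74, 5.25 and 7.37 in E2, 2.26, 4.94 and 6.48 in E4 and 2.85, 4.61 and 8.16 in TAM (adjusted p = 0.855, 0.979 and 0.72 against OVX). The groups overlapped widely. The 95% interval of its log2 fold change was -0.40 to 0.80 in E2 and -0.59 to 0.62 in E4. Cxcl9, induced by interferon gamma, was 5.02 to 13.8 CPM in OVX and between 5.36 and 11.1 CPM in the treated groups. The neutrophil receptor Cxcr2 did not exceed 1.17 CPM in any library, and the ligands Cxcl2 and Cxcl5 gave no call. Cx3cr1 was 4.72 to 16.2 CPM in OVX and 12.6 to 19 CPM in E4. Ackr1 was 8.7, 21.7 and 27.1 CPM in OVX and 27.2, 29.6 and 32.4 CPM in E4, without overlap, but the log2 fold change of 0.52 ± 0.24 did not pass (adjusted p = 0.116), although it did without TAM C35 (0.54).

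The signaling genes behind the receptors were followed with a list of 49 genes that are no members. In E2, where 4.14% of all genes passed and 9 of 10 macrophage markers rose, 7 of the 49 rose and 0 fell, with Cmklr1, the chemerin receptor, at 1.15, the myeloid kinase Fgr at 0.84, Dock2, which drives leukocyte movement, at 0.70, and Stat3 at 0.40. In E4, where 22.0% of all genes passed, 13 rose and 9 fell. Those that fell included the leukocyte genes Rgs1 (-1.08), Plcb2 (-1.08) and Rac2 (-0.71), and the platelet chemokines Ppbp (-1.39) and Pf4 (-0.57), whose names keep them out of the members. Those that rose included Stat3 (0.74), Nfkbia (0.70) and Cmklr1 (0.55), and in TAM, where 2.23% of all genes passed, Stat3 alone rose (0.47), all as log2 fold changes. In E4 against E2, 16 of the 49 list genes were lower and 0 higher, beside the 12.6% of all genes called there, among them Rac2 (-1.35), Vav1 (-1.17) and Dock2 (-1.01). Medians of the list were 0.16 in E2 and 0.03 in E4.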

How the data were processed

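The submitters' notes name bcl2fastq 2.17, Trim Galore, Bowtie2, featureCounts and build mm10/GRCm38, and libraries were made with a stranded mRNA kit. The strand and multimapping settings are not given in the sources used here. The deposited tables, 1 for each library, hold estimated counts that the authors left unnormalized, and 8.87% to 9.80% of values per library have decimals, which were rounded. All 24 libraries entered 1 fit without covariates, in edgeR 4.0.16 (quasi-likelihood test) under R 4.3.3. Libraries were scaled by TMM, low genes were removed by filterByExpr, and p-values had Benjamini-Hochberg adjustment over 25056 genes. A gene passed at an adjusted p under 0.05. CPM use TMM-scaled library sizes. Standard errors were derived from the F statistic. Gene names and positions come from GENCODE mouse release 21. Replicates of a group differed by at least 11.6 (chi-square per gene), more than sampling noise.

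Members and lists were chosen with earlier results of these data known. Genes were named by rule: up to 10 members with the largest changes in each comparison with OVX and in E4 against E2, the 10 with the highest level, and 17 set members. Of the tested members, 1 is counted but not reported by name or plotted here. Members named beyond the rule were chosen after their values were seen. Marker lists covered B, T, dendritic and mast cells, macrophages, neutrophils, platelets, lymph node stroma, lymphatic endothelium, endothelium, smooth muscle, fibroblasts, ganglion, Schwann cells, adipocytes and thyroid. Against OVX, smooth muscle, T cell, neutrophil, lymph node stroma, ganglion and thyroid lists had 0 markers past the test in any group. Of these, only 8 of 10 neutrophil, 1 of 5 lymph node stroma and 3 of 5 thyroid markers were tested. Lists without a call still shifted in E4, with median log2 fold changes of -1.73 for T cells, -0.89 for neutrophils, 0.94 for ganglion and 0.80 for thyroid. The smooth muscle median was -0.15 there. In E4 the fibroblast list had 4 of 6 lower, mast cells 3 of 5 lower and 1 higher, dendritic cells 2 of 6 lower, adipocytes 2 of 5 lower, platelets 2 of 5 lower, endothelium 1 of 7 either way and Schwann cells 1 of 4 higher. In E2 lymphatic endothelium and endothelium had 1 higher each, mast cells 1 higher and dendritic cells 1 lower. In TAM B cells had 2 lower, adipocytes 1 lower, and mast cells, endothelium and fibroblasts 1 higher each. In E2 against OVX simulated over 25056 genes, 76.1% and 95.4% of genes changed by a log2 fold of 1 and 2 were called. The 200 changed genes were drawn from those with a mean over 1 CPM, and 13 unchanged genes were called besides. These shares do not cover members under that level, and the simulated libraries held no differences in tissue composition. DESeq2 1.42.0 was an alternative, and Python 3.11.15 was used for tables and figures.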

Additional observations from a re-analysis of the deposited data

Results flagged for a closer look

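Of 128 groups of 6 libraries examined, over the members named by rule, 13 held a library far from the other 5, where chance alone gives about 6.4 (1 in 20). In OVX C5, Ackr1 was lowest at 8.7 CPM (others 20.4 to 27.1), while Ccl24 at 17.8 CPM (7.62 to 11.3), Ccl6 at 63.2 CPM (27.3 to 40.5) and Cxcl13 at 3.8 CPM (0.845 to 1.35) were highest. In TAM C35, Ackr1 was lowest at 9.79 CPM (24.9 to 31) and Cxcr4 at 6.03 CPM (46.6 to 65.7), and Cxcl16 was highest at 17.7 CPM (10.4 to 13.1). E2 C9 had the highest Ccr9 of its group at 43.9 CPM (0.147 to 2.93) and the highest Ccr4 at 1.5 CPM (0.0839 to 0.271). In E2 C6, Cxcl13 at 2.59 CPM (0.715 to 1.2) and Cxcr2 at 1.17 CPM (0.0211 to 0.425) were highest. E4 C39 was highest for Cx3cl1 at 18 CPM (8.24 to 11.6) and lowest for Cxcr4 at 41.5 CPM (57.1 to 62.6).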

How the results depend on the processing

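The number of members past the test, by edgeR with Benjamini-Hochberg adjustment unless another tool is named, moved by over 1.5 times as follows. In E2 against OVX it was 8, and 5 in the low number series, 0 in the high series, 4 with macrophage markers as a covariate (all lower, Cxcl12 kept and Ackr2, Ccl21b and Cxcl13 gained) and 3 with the fold threshold. In E4 against OVX it was 17, and 0 in the high series, where 2 OVX libraries remain, 0 with B cell markers as a covariate and 3 with the fold threshold. In TAM against OVX it was 1, and 0 with only the 2 groups compared, in the low series, in the high series, with B cell markers and with the fold threshold, 4 with ganglion markers and 6 by DESeq2. In E4 against E2 it was 18, and 0 in the high series, 8 with B cell markers and 0 with macrophage markers. In TAM against E2 it was 11, and 1 in the high series, 2 with macrophage markers (Ackr2 and Cxcl12, higher, with all 11 lost) and 6 with the fold threshold. In TAM against E4 it was 0, and 2 by DESeq2. Leaving out 1 library at a time gave 7 to 10, 14 to 20, 0 to 3, 15 to 20, 9 to 13 and 0 to 1 members in these comparisons. Shares of all genes are not given for each of these fits, and a count without one is not read as a result about the members.

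Log2 fold changes turned direction in E4 against E2 for Ackr3 (0.20), Ccl11 (0.20) and Cxcl16 (0.031), and in TAM against E2 for Cxcl16 (0.069), each with macrophage markers as a covariate, which was chosen after seeing the data. They turned for Ccr7 in E4 against OVX with B cell markers (0.30), for Cxcr4 in E4 against OVX with ganglion markers (-0.14), and for Ccr9 in E2 against OVX in the high series (-2.19) and without E2 C9 (range -0.68 to 2.84 over the fits without 1 library), and in E4 against E2 in the high series (0.53). Fewer libraries remain in a number series, and for the other changes the cause was not tested. Over 62 fold changes and all alternatives other than leaving out 1 library, 558 values kept direction and side of the threshold, 154 no longer passed, 9 newly passed and 8 turned. No paired analysis was possible because the animal numbers in the labels are shared by no groups. The value of 3 counts ranged from 0.0453 CPM in the deepest library to 0.122 CPM in the shallowest.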
